A study of Mus musculus with 4 samples.

Results

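The genes described here are 10 enzymes of glycolysis, chosen by name: the hexokinases Hk1 and Hk2, the isomerase Gpi1, the phosphofructokinases Pfkl and Pfkm, the aldolases Aldoa and Aldoc, the kinase Pgk1, and the lactate dehydrogenases Ldha and Ldhb. All 10 were found by gene name among the 22863 rows of the RNA-seq table. Polyadenylated RNA was sequenced from eyes of melatonin-proficient C3H mice (the C3H/f+/+ line, which lacks the Pde6b mutation that destroys photoreceptors in ordinary C3H mice). Subjective day animals were kept in darkness for 18 hours by the methods (another passage gives 30) and taken at circadian time 6. Objective day animals were exposed to morning light, dark-adapted for 1 hour and taken at zeitgeber time 6. Each condition had 2 biological replicates, and each replicate pooled 4 eyes of 1 female and 1 male. The groups thus differed in light history and shared the hour of the day, the strain and the dissection in the dark.

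The tissue was wider than the retina. It held posterior sclera, choroid, RPE and retina, and all 9 skeletal muscle markers examined were expressed in every sample, with summed values of 64728 to 74263 against 1944116 to 2450256 for the 7 rod markers. Values are fractional numbers per gene that appear to be counts adjusted to a shared library size, although the sources used here do not state the adjustment. They summed to between 33278417 and 35236783 per sample, which does not give the depth, and the 10 genes made up 0.691% to 0.733% of each total. Of the other tissues, the 5 surface epithelium markers that could be tested were all lower in objective day at an adjusted p under 0.05 in limma's test (summed values of 2958 and 5487, against 10613 and 11009 in subjective day). Of the 5 red blood cell markers, 3 were higher by the same test, which called 8.51% of all genes. In 4 further lists a single marker was called, lower in each case: Rpe65 of the RPE (log2 fold change -0.52), Slc1a3 of Müller glia (-0.34), Cabp5 of bipolar cells (-0.31) and Lum of the sclera (-0.74). The rod markers, none of which passed the threshold, had a median log2 fold change of 0.21. With the trend with GC content described below removed, none of the 4 single markers was called, beside 1.27% of all genes. Rpe65 was then at -0.25, Slc1a3 at -0.24, Cabp5 at -0.20 and Lum at -0.45. Krt6a of the surface epithelium and Hbb-bt and Hbb-bs of red blood cells also lost their calls. The part of these tissues in the results was not tested. The lens had been cut away with the front of the eye, and lens markers followed the replicate number (41138 and 35935 in the replicates numbered 1, 10303 and 4255 in those numbered 2). The RPE marker Best1 and the cornea marker Krt12 stayed under 13 in every sample. In tissue of this kind, fewer cells of a type and less RNA per cell cannot be told apart.

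Glycolysis splits glucose into pyruvate in the cytosol and yields ATP and NADH. Hexokinase traps glucose as glucose-6-phosphate, Gpi1 turns it into fructose-6-phosphate, and phosphofructokinase commits it to breakdown. Aldolase then cuts the sugar into trioses, Pgk1 makes ATP from them, and lactate dehydrogenase converts pyruvate to lactate and regenerates NAD+. Photoreceptors are known for aerobic glycolysis: they turn much of their glucose into lactate although oxygen is present. Several steps have isozymes encoded by separate genes, with Hk2 and Ldha typical of strongly glycolytic cells, Hk1 of brain and Ldhb of heart.

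Many genes of this pathway are textbook targets of the hypoxia factor HIF-1, which binds the core ACGTG or GCGTG, and the clock factors bind the related E-box CACGTG. The 250 bases before the annotated start are shown for 4 of the genes, because these windows hold no annotated exon and contrast the isozyme pair Ldha and Ldhb, and Hk2 and Pgk1, chosen with their values known, had among the lowest estimates described below. Sequences are from RefSeq (GRCm38.p6), 5′ to 3′ on the strand of the gene, and capitals mark matches to the 3 motifs on either strand.
Hk2, chr6:82774455-82774704, minus strand: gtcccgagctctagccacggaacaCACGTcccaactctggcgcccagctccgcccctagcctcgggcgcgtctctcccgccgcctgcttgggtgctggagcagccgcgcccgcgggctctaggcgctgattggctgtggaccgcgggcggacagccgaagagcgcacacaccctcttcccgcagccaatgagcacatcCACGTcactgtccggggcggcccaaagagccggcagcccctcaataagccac
Pgk1, chrX:106186850-106187099, plus strand: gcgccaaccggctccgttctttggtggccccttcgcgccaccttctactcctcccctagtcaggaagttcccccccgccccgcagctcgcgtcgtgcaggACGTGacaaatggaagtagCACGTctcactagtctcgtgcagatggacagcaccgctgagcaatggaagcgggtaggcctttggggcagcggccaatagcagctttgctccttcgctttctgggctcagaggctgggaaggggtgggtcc
Ldha, chr7:46845554-46845803, plus strand: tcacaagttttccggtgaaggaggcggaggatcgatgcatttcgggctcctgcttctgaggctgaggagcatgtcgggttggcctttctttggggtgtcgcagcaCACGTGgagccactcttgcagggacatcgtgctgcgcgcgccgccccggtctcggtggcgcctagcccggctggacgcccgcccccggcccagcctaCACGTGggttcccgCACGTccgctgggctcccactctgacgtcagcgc
Ldhb, chr6:142507958-142508207, minus strand: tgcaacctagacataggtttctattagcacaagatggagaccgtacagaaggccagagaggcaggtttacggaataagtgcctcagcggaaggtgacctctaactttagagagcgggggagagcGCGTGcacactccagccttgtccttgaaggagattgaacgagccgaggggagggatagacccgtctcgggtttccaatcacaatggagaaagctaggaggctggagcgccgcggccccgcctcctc
The Ldha window held 2 copies of CACGTG and 5 matches to ACGTG, counted on both strands, so that each CACGTG contributes 2 of them. The windows of Hk2 and Pgk1 each held 2 matches to ACGTG and none to CACGTG or GCGTG. The Ldhb window held 1 GCGTG and neither of the other motifs. Among 32851 windows of the same length before annotated starts, 6.02% contained CACGTG, 16.6% ACGTG and 28.2% GCGTG. The Ldha window is the first of 2 for this gene and lies inside the span of its longer annotated transcripts. Of the other exon-free windows, the first of Pfkm, whose estimate was near 0, held 1 CACGTG and 2 ACGTG. Another of Pfkm and that of Hk1 held no match, and that of Aldoa held 1 ACGTG. The matches in the exon-free windows thus do not sort these genes by their estimates. The windows of Pfkl, Gpi1 and Aldoc hold annotated exon and were not compared. The other Ldha window, also free of exons, held 1 GCGTG and neither of the other motifs, the same counts as that of Ldhb. A match is a string of letters and was not tested for binding.

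The 10 genes were strongly expressed, and their levels spanned a wide range when divided by the length of the longest transcript (an approximation, since which transcripts were made is not known). Aldoa, which cleaves fructose-1,6-bisphosphate, was the highest, at 53020 and 53405 per kb in objective day against 57633 and 53491 in subjective day. Ldha came next at a mean of 15092 per kb, followed by Hk1 (8877), Gpi1 (7874), Aldoc (6267), Ldhb (5661), Pgk1 (4213), Pfkl (3907), Hk2 (3215) and Pfkm (2549). Over the 4 samples the ranges of Hk1 and Gpi1 overlapped, as did those of Pgk1 and Pfkl, and all other neighbours in this order were separated. Divided by the merged length of all annotated exons instead, Aldoa, Ldha and Pgk1 kept their places as the highest, the next and the seventh gene, while Hk1 moved from rank 3 to 5 and Pfkl from 8 to 10.

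**Figure D1:**
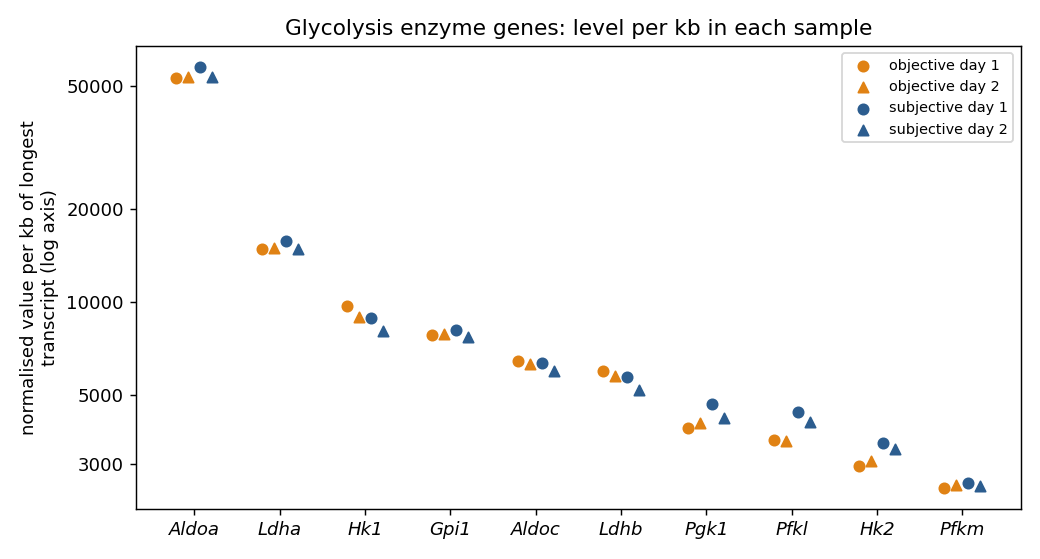
Value per kb of the longest transcript (vertical log axis) for the 10 genes in the 4 samples, with orange for objective day, blue for subjective day, circles for replicate 1 and triangles for replicate 2. Aldoa lies near 54387 per kb and Pfkm near 2549, and the difference between genes far exceeds that between conditions.

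None of the 10 genes passed the threshold between objective and subjective day (adjusted p under 0.05, limma's moderated test over 17784 genes), whereas 8.51% of all genes tested did. At an unadjusted p under 0.05, 2 of the 10 genes were listed, Pfkl and Hk2, both with lower values in objective day, where 25.4% of all genes tested stood at that level. The estimates were negative for 7 genes and positive for 3, and the median log2 fold change was -0.03 for the 10 genes and 0.01 for all genes tested. Without subjective day replicate 1 the median of the 10 genes was -0.0020, with 6 estimates negative, and without subjective day replicate 2 it was -0.06. The median size of the change, whatever its sign, was 0.08 on the log2 scale for the 10 genes against 0.16 for all. Among genes with a mean value of at least 50, that of all genes was 0.14. Once the trend with GC content described below was removed, the median size was 0.111 for the 10 genes and 0.108 for all. The 95% intervals of all 10 genes lay between -24.9% (the lower bound for Pfkl) and 28.0% (the upper bound for Hk1), so that no interval reached a change beyond these bounds. The p-values and intervals rest on the spread between 2 pooled samples per condition, which limma moderates with that of genes of similar mean expression. The conditions did not overlap for 6 genes, with the objective day samples lower for 4 and higher for 2, and this was so for 56.1% of all genes tested.

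**Figure D2:**
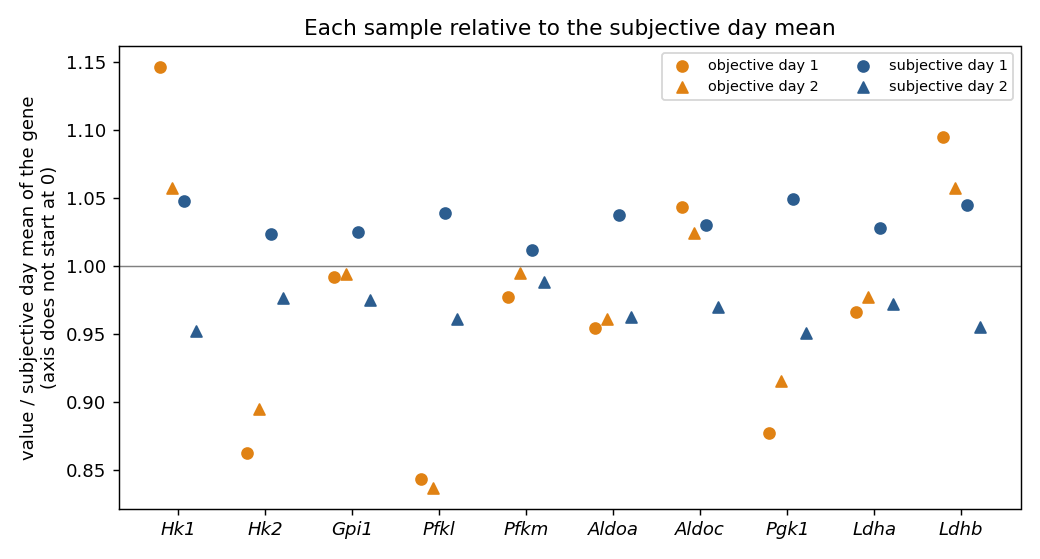
Value of each of the 10 genes in each sample divided by the mean of that gene in subjective day (vertical axis, not starting at 0), with colours for condition and marker shapes for replicate number. Pfkl and Hk2 lie below both subjective day samples, Hk1 and Ldhb above them, and subjective day replicate 1 lies above replicate 2 for all 10 genes.

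Differences between replicates of a condition were of a size with most of these estimates. In subjective day, replicate 1 exceeded replicate 2 in all 10 genes, by 0.03 to 0.14 on the log2 scale, whereas replicate 1 was higher in 53.8% of all genes tested. In objective day, replicate 1 was higher in 4 of the 10 genes, with differences of -0.06 to 0.12, and in 55.1% of all genes tested. When 1 sample at a time was dropped, the estimates of Pfkl (-0.31 to -0.19) and Hk2 (-0.22 to -0.15) stayed within 1.5 times their full values, and those of the other 8 genes did not. That of Hk1 ran from 0.07 without subjective day replicate 2 (0.08 without objective day replicate 1) to 0.21, and that of Ldhb from 0.04 without subjective day replicate 2 to 0.17. Without subjective day replicate 1 the estimate of Pgk1 was -0.09, that of Aldoa -0.0075 and that of Ldha -0.00080. The estimates of Gpi1, Pfkm and Aldoc stayed between -0.05 and 0.09.

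At the hexokinase step the isozymes had estimates of opposite sign. Hk2 (ENSMUSG00000000628, chr6:82725025-82774454, minus strand) had values of 16267 and 16884 in objective day against 19317 and 18422 in subjective day, a mean of 16576 ± 436 (SD, n = 2) against 18870 ± 633 (SD, n = 2). Both objective day samples were the low ones, and the groups did not overlap. The log2 fold change was -0.19 (standard error 0.069, limma adjusted p = 0.148), or -12.1% with a 95% interval from -21.5% to -1.66%. Hk1 (ENSMUSG00000037012, chr10:62268855-62379908, minus strand), the hexokinase of most neural tissue, had values of 41427 and 38202 in objective day against 37865 and 34408 in subjective day. Again the groups did not overlap, with the objective day samples higher, but the nearest samples of the conditions, 38202 and 37865, were closer together than the replicates of either. Its log2 fold change was 0.14 (standard error 0.092, limma adjusted p = 0.388), with an interval from -5.12% to 28.0%. Hk1 shares 157 exonic bases with the antisense transcript Hk1os (2210417K05Rik in the table), which had values of 63.9 to 68.6. Summed, the hexokinases were at 57694 and 55086 in objective day against 57182 and 52830 in subjective day, which overlap.

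Gpi1 (ENSMUSG00000036427, chr7:34201330-34230336, minus strand), the enzyme between hexokinase and phosphofructokinase, had an estimate close to 0. Its values were 25048 and 25098 in objective day against 25870 and 24619 in subjective day, so both objective day samples fell between the subjective day replicates. The log2 fold change was -0.01 (standard error 0.073, limma adjusted p = 0.954), with an interval from -11.8% to 11.9%. Gpi1 shares 741 exonic bases with Gm26762 on the opposite strand, a long noncoding RNA with values of 211 to 443, and the strand setting of the counting is not given in the sources used here.

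Pfkl, the liver-type subunit of the committing enzyme, had the lowest estimate of the 10 genes. Pfkl (ENSMUSG00000020277, chr10:77986947-78010083, minus strand) was at 13359 and 13254 in objective day against 16455 and 15218 in subjective day, a mean of 13307 ± 74.2 (SD, n = 2) against 15837 ± 875 (SD, n = 2). The groups did not overlap, and the gap of the nearest samples exceeded the distance between replicates of either condition. The log2 fold change was -0.25 (standard error 0.07, limma adjusted p = 0.0723), or -15.9% with an interval from -24.9% to -5.82%. Within the replicates numbered 1 the difference was -0.30 and within those numbered 2 it was -0.20. When samples were scaled without the mitochondrially encoded genes, the limma adjusted p of Pfkl was 0.0391, past the threshold. Those genes made up 3.40% and 2.63% of the objective day totals against 6.06% and 6.38% of the subjective day totals.

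Pfkm (ENSMUSG00000033065, chr15:98092589-98132451, plus strand), the muscle-type subunit, was at 7220 and 7353 in objective day against 7476 and 7302 in subjective day. The groups overlapped, and the log2 fold change was -0.02 (standard error 0.059, limma adjusted p = 0.865), with an interval from -10.4% to 8.47%. Of the 9 skeletal muscle markers none passed the threshold, their median log2 fold change was -0.05, and the share of Pfkm RNA that came from muscle was not tested. Summed, the phosphofructokinases were at 20579 and 20607 in objective day against 23931 and 22520 in subjective day, which do not overlap (log2 difference -0.17, exact permutation p = 0.333, the smallest possible). Pfkm shares 341 exonic bases with Gm26513, whose values were 26.3 to 42.0.

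Neither aldolase passed the threshold, and both estimates were small. Aldoa (ENSMUSG00000030695, chr7:126795234-126800751, minus strand), also the main aldolase of muscle, was at 82128 and 82724 in objective day against 89273 and 82857 in subjective day. Subjective day replicate 1 stood above the other samples, which lay close together, and the groups barely failed to overlap. Its log2 fold change was -0.06 (standard error 0.11, limma adjusted p = 0.763), with an interval from -19.4% to 13.9%. Aldoa shares 25 exonic bases with Fam57b on the opposite strand, which had values of 42309 to 53605. Aldoc (ENSMUSG00000017390, chr11:78322968-78327781, plus strand), the brain-type aldolase, was at 17915 and 17589 in objective day against 17688 and 16650 in subjective day, which overlap. The log2 fold change of Aldoc was 0.05 (standard error 0.07, limma adjusted p = 0.71), with an interval from -7.63% to 15.8%, and its sign turned once the trend with GC content was removed (-0.02).

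Pgk1 (ENSMUSG00000062070, chrX:106187100-106203699, plus strand), which makes the first ATP of the pathway, was at 7111 and 7424 in objective day against 8511 and 7707 in subjective day. The objective day samples were the lower ones without overlap, and the gap between the nearest samples (7424 and 7707) was smaller than the distance between the subjective day replicates. The log2 fold change was -0.16 (standard error 0.071, limma adjusted p = 0.22), or -10.3% with an interval from -20.0% to 0.648%. The difference was -0.26 within the replicates numbered 1 and -0.05 within those numbered 2. The related gene Pgk1-rs7 reached at most 0.999, so few reads were assigned to it.

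Among the lactate dehydrogenases, Ldha (ENSMUSG00000063229, chr7:46841475-46855627, plus strand), the subunit that favours lactate formation, was at 26844 and 27147 in objective day against 28564 and 27010 in subjective day. These values overlap, and the log2 fold change was -0.04 (standard error 0.076, limma adjusted p = 0.777), with an interval from -14.1% to 9.90%. The pseudogenes Ldha-ps and Ldha-ps2 had values of at most 7.99 and 4.99. Ldhb (ENSMUSG00000030246, chr6:142490249-142507957, minus strand), the heart-type subunit, was at 7785 and 7520 in objective day against 7434 and 6791 in subjective day. Both objective day samples were higher, with the nearest (7520 and 7434) closer than the replicates of either condition. Ldhb had a log2 fold change of 0.11 (standard error 0.068, limma adjusted p = 0.373), with an interval from -3.61% to 20.3%.

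**Figure D3:**
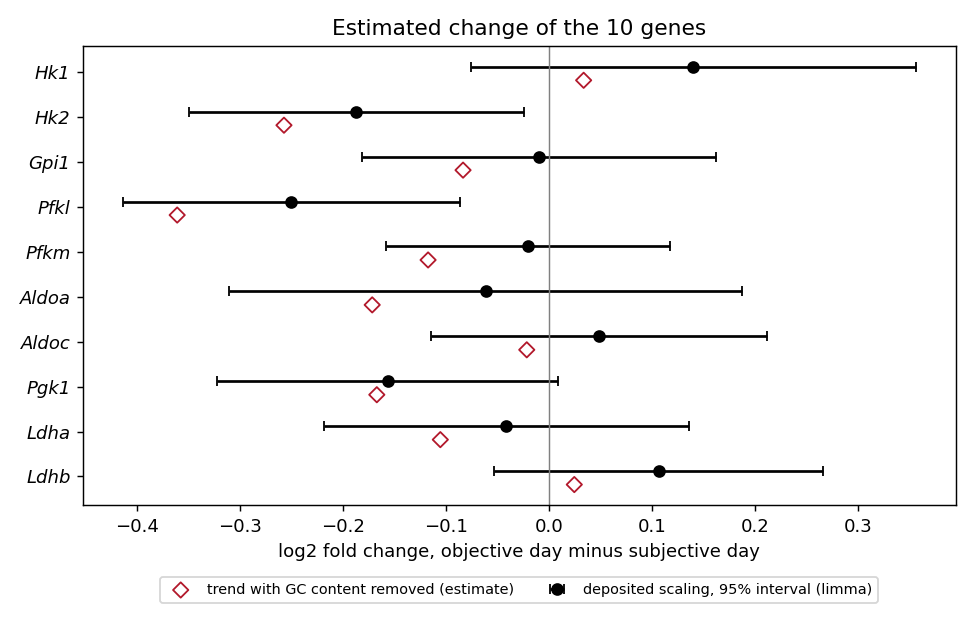
Log2 fold change of objective over subjective day (horizontal axis) for the 10 genes, with black points and bars for the estimate and its 95% interval and red diamonds for the estimate after the trend with GC content was removed. Only the intervals of Hk2 and Pfkl lie below 0, and removal of the trend moves every estimate to the left.

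Because isozymes of a step are measured in the same library, their ratio does not depend on the scaling between samples. The ratio of Hk2 to Hk1 was 0.393 and 0.442 in objective day against 0.51 and 0.535 in subjective day, a log2 difference of -0.33. For Pfkl to Pfkm the ratio was 1.85 and 1.80 in objective day against 2.20 and 2.08 in subjective day, a difference of -0.23. The hexokinase ratio had the largest difference of the 4 pairs except without objective day replicate 1, when it was -0.24 and that of Pfkl to Pfkm -0.25. In both pairs every objective day sample was below every subjective day sample.

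The ratio of Ldha to Ldhb was 3.45 and 3.61 in objective day against 3.84 and 3.98 in subjective day, a log2 difference of -0.15. That of Aldoa to Aldoc was 4.58 and 4.70 in objective day against 5.05 and 4.98 in subjective day, a difference of -0.11. The conditions did not overlap for these ratios either, and all pairs share the same 4 samples. Of all single genes tested 56.1% did not overlap, and the share among other gene pairs was not determined. The sign of each difference depends on which gene is named first, so the shared sign is no count of evidence. An exact two-sided permutation test over samples gave p = 0.333 for each pair (adjusted p = 0.333 over the 4 ratios), the smallest value that 2 samples against 2 allow. Such a ratio does not tell which of its genes differs. On the scale per kb of the longest transcript, Ldha made up 71.2% and 72.2% of lactate dehydrogenase RNA in objective day against 73.4% and 74.1% in subjective day, and Hk2 made up 23.4% and 25.5% of hexokinase RNA against 28.4% and 29.4%. Per kb of merged exons the Hk2 share was 35.9% and 38.7% against 42.2% and 43.4%, and that of Ldha 62.1% and 63.1% against 64.6% and 65.4%.

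**Figure D4:**
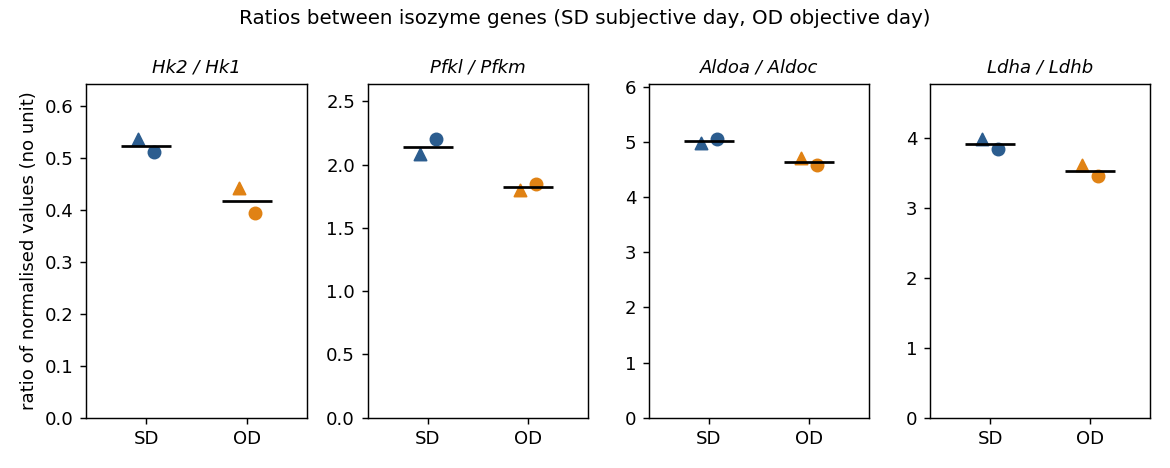
Ratio of normalised values (vertical axes from 0) between the isozyme genes of a step in each sample, by condition, with circles for replicate 1, triangles for replicate 2 and bars for the geometric mean. Both objective day samples lie below both subjective day samples in all 4 panels, with the widest relative gap for Hk2 over Hk1.

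Changes between these conditions followed the GC content of the transcript across all genes, so the 10 genes were set beside others of like GC content. Their longest transcripts had a GC content from 49.7% (Pgk1) to 57.1% (Pfkl). In bins of 2 percentage points that cover this range, the median log2 fold change of all genes ran from 0.02 to 0.13. Of the 10 genes, 8 lay below the median of their own bin, the exceptions being Hk1 (0.14 against 0.13) and Ldhb (0.11 against 0.10). With this trend taken out of every sample, the median log2 fold change of the 10 genes was -0.11 against 0.02 for all, 8 estimates were negative, and limma called 0 of the 10 genes and 1.27% of all (2 of the 10 had an unadjusted p under 0.05, against 13.5% of all). The estimate was then -0.36 for Pfkl (limma adjusted p = 0.0585) and -0.26 for Hk2 (limma adjusted p = 0.161). Those of Hk1 and Ldhb came to 0.03 and 0.02. The cause of the trend was not tested.

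**Figure D5:**
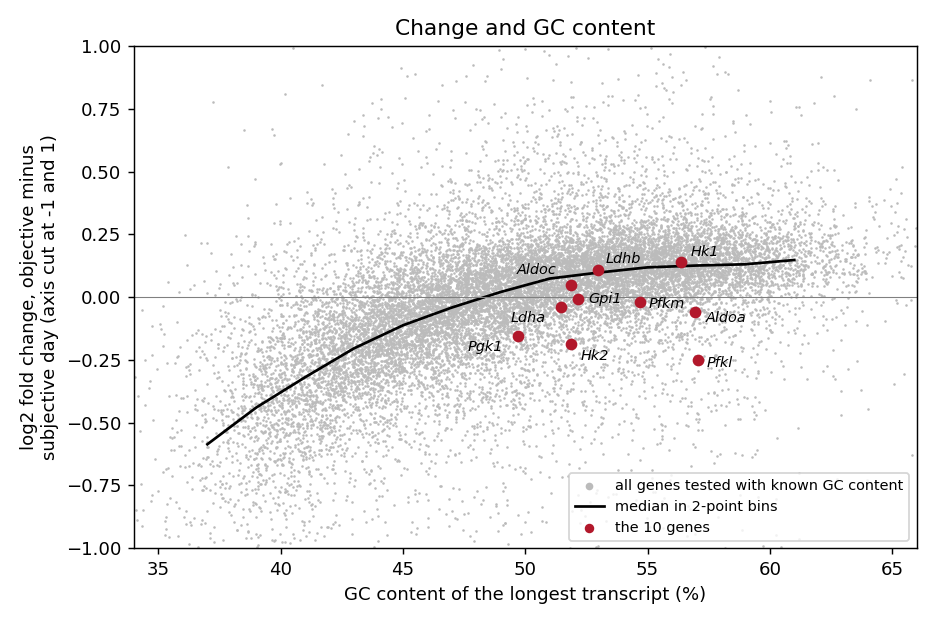
Log2 fold change of objective over subjective day against GC content of the longest transcript, with grey points for all genes tested, a black line for the median in bins of 2 percentage points and red points for the 10 genes. The line rises from -0.59 at the low end to 0.15 at the high end, Hk1 and Ldhb lie on it, and Pfkl, Hk2 and Pgk1 lie under it; 445 of 17536 genes fall outside the plotted range.

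The wider pathway was described by 6 lists with 80 tested genes, of which 4 were lower in objective day past the threshold and 0 higher, or 5% against the 8.51% of all genes. The 18 tested enzymes of the other glycolytic steps held no gene past the threshold (limma's test, with 1 at an unadjusted p under 0.05, beside 25.4% of all genes), and their median log2 fold change was -0.01. Pkm, the pyruvate kinase gene that forms pyruvate, was at 129640 and 121420 in objective day against 138150 and 118120 in subjective day, so that the objective day samples lay within the subjective day range (log2 fold change -0.03). Of the enolases, Eno1 had a log2 fold change of -0.16 and the neuronal Eno2 of 0.13, each without overlap of the groups and each short of the threshold (limma adjusted p = 0.338 and 0.364). Eno1 was at 24658 and 25412 in objective day against 30586 and 25749 in subjective day, and its estimate was -0.04 without subjective day replicate 1 and -0.29 without subjective day replicate 2. Eno2 was at 24975 and 24336 in objective day against 23711 and 21478 in subjective day, and its estimate was 0.06 without subjective day replicate 2 and 0.20 without subjective day replicate 1. The count of Eno1 is uncertain because of its near-identical copy Gm5506, which had values of 1914 to 2325. Hkdc1, a minor hexokinase, was at 378 and 316 in objective day against 307 and 214 in subjective day (log2 fold change 0.43, limma adjusted p = 0.19). Its estimate was 0.17 without subjective day replicate 2 and 0.69 without subjective day replicate 1, where it passed the threshold (limma adjusted p = 0.0141).

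Of the 10 tested genes of the transport list, which holds carriers, carrier partners and Nxnl1, none passed the threshold. An unadjusted p under 0.05 in limma's test was found for 3 of them (25.4% of all genes). Slc2a1, the glucose carrier GLUT1 of the RPE and retina, was at 11574 and 11317 in objective day against 10450 and 9746 in subjective day, higher without overlap (log2 fold change 0.18, limma adjusted p = 0.142). The lactate carrier Slc16a7 and the carrier partner Emb had estimates of -0.50 and -0.30 (limma adjusted p = 0.0548 and 0.0949). Their transcripts are poor in GC (37.7% and 44.9%), and with the trend removed the estimates were 0.10 for Slc16a7, -0.17 for Emb and 0.09 for Slc2a1. Slc16a7 passed the threshold without subjective day replicate 1 (limma adjusted p = 0.0411), and Emb passed it without subjective day replicate 2 (-0.42, limma adjusted p = 0.0216) and was at -0.19 without subjective day replicate 1. Bsg, the basigin partner of lactate carriers, and Nxnl1, which encodes the rod-derived cone viability factor, had estimates of 0.09 and 0.05 with overlapping groups.

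The 13 regulators of glycolytic flux likewise held 0 genes past the threshold in limma's test and 2 at an unadjusted p under 0.05, again beside 25.4% of all genes. Hif1a, the oxygen-sensitive subunit of HIF-1, was at 17895 and 16221 in objective day against 20575 and 20389 in subjective day, which do not overlap (log2 fold change -0.27, limma adjusted p = 0.0782). The estimate was 0.06 once the trend with GC content was removed. The transcript has a GC content of 41.3%. With samples scaled without the mitochondrially encoded genes, Hif1a passed the threshold (limma adjusted p = 0.0321). Its partner Arnt had an estimate of -0.01, and Pfkfb2, which makes the allosteric activator of phosphofructokinase, one of -0.04.

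All 4 genes past the threshold belonged to the pyruvate dehydrogenase list of 14 genes, which governs the entry of pyruvate into mitochondria and the citric acid cycle (8.51% of all genes were called). At an unadjusted p under 0.05 the list held 7 genes with lower and 1 with higher values in limma's test, where 25.4% of all genes stood. Dld, the E3 subunit of the complex, was at 2545 and 2322 in objective day against 3232 and 3189 in subjective day (log2 fold change -0.40, limma adjusted p = 0.014). Pdhb, an E1 subunit, was at 2751 and 2589 against 3180 and 3182 (log2 fold change -0.25, limma adjusted p = 0.0474, or 0.0564 with no filter on low values). The members that fell included enzymes of opposite action: Pdk1, a kinase that switches the complex off (-0.28, limma adjusted p = 0.037), and Pdp1, a phosphatase that switches it on (-0.35, limma adjusted p = 0.0303). Dlat and Pdha1 of the complex and the pyruvate carrier subunit Mpc2 had estimates of -0.21 each (limma adjusted p = 0.0784 to 0.11), and the kinase Pdk2 had one of 0.21 (adjusted p = 0.123), which was 0.13 without objective day replicate 1. The GC content of the 4 called transcripts ran from 39.2% for Pdp1 to 46.4% for Pdk1. In bins of 2 percentage points, the median of all genes was -0.44 in the bin of Pdp1 and -0.32 in that of Dld. It was -0.04 in the bin of Pdhb and Pdk1. With the trend removed none of the 4 was called, beside 1.27% of all genes. Dld was then at -0.03, Pdhb at -0.17, Pdk1 at -0.20 and Pdp1 at 0.13. With 1 sample left out, Dld alone of the 4 kept its call without objective day replicate 1 and without subjective day replicate 2, none did without objective day replicate 2 (limma adjusted p of Dld = 0.105), and all 4 did without subjective day replicate 1, when Pdha1 also passed (limma adjusted p = 0.0432).

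Pathways that branch from glycolysis or follow it had no gene past the threshold in limma's test, with 3 of 8 pentose phosphate genes and 2 of 17 citric acid cycle genes at an unadjusted p under 0.05 (25.4% of all genes). In the pentose phosphate pathway, which makes NADPH and ribose, Pgls had an estimate of 0.20 and Rpia of -0.44 (limma adjusted p = 0.12 and 0.169). Rpia was at 478 and 548 in objective day against 571 and 849 in subjective day, and without subjective day replicate 2, the sample at 849, its estimate was -0.16 (without subjective day replicate 1 it was -0.73, limma adjusted p = 0.00273). The abundant Tkt, G6pdx and Taldo1 had estimates of 0.15, 0.09 and 0.02, of which that of Tkt was 0.08 without objective day replicate 1 and that of G6pdx 0.02 without subjective day replicate 2. In the citric acid cycle, Sucla2 had an estimate of -0.28 and Sdhc of 0.20 (limma adjusted p = 0.1, or 0.0483 when scaled without the mitochondrially encoded genes, and 0.155), and the abundant Ogdh and Mdh1 had estimates of 0.15 and -0.07. Sucla2 passed the threshold without objective day replicate 1 (-0.41, limma adjusted p = 0.0437) and was at -0.16 without objective day replicate 2. Sdhc passed it without subjective day replicate 1 (0.29, limma adjusted p = 0.0372) and was at 0.12 without subjective day replicate 2, and Ogdh was at 0.09 without either objective day replicate 1 or subjective day replicate 1. Per list, the median log2 fold change was 0.04 for transport, -0.01 for regulators, -0.17 for pyruvate dehydrogenase, 0.09 for the pentose phosphate pathway and 0.02 for the citric acid cycle, beside 0.01 over all genes tested.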

How the data were processed

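RNA was extracted from pooled posterior eyes, poly-A selected and sequenced on a single lane as 4 indexed samples. Per the methods, the authors aligned reads to an Ensembl mouse release with TopHat2 2.0.9 and Bowtie2 2.1.0 and estimated gene abundance with HTSeq. The deposited values are a normalised signal: fractional numbers per gene that look like counts adjusted to a shared library size, with edgeR named in the submitters' processing notes. The adjustment itself is not given in the sources used here. The strand setting is not given in the sources used here. The deposited table also holds the log2 fold change, log2 CPM, p-value and adjusted p of the authors' own comparison, which were not used. No column of sample values was left out.

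The 17784 genes that reached a value of 10 in 2 or more samples were compared on log2(value + 1) with limma 3.58.1 in R 4.3.3, using a variance prior that follows mean expression and Benjamini-Hochberg adjustment over all of them at 0.05. Each fold change is on that scale. Intervals are limma's at 95%, not adjusted for the number of genes. The labels do not say that equal replicate numbers were processed together, and with 2 samples in each condition precision is limited by their number. The method was tested on simulated counts. Positions, transcript lengths and GC content came from GENCODE M21 (GRCm38, the assembly of the authors' Ensembl release), with GC content known for 98.6% of the genes tested. GC trends were removed per sample by local regression (span 0.3). The upstream windows come from RefSeq, where all 10 genes matched. Tigar was matched by gene ID, and Pgk2 and Fbp1 are not analysed here. Named pathway genes are those called with or without the replicate number in the model, plus the 3 with the highest mean in each list, of which 1 is not reported here. The 10 genes and all lists were chosen with earlier results of these data known. Figures were drawn with matplotlib 3.10.9.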

Additional observations from a re-analysis of the deposited data

How the results depend on the processing

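Over all genes, 1514 were called, 3613 (20.3%) with the replicate block, 223 with the GC trend removed, 0 with a single variance prior (limma, 3586 at an unadjusted p under 0.05), and 664 to 2557 with a sample left out (lowest without objective day replicate 2, highest without subjective day replicate 1). Of the 10 glycolysis genes, 0 were called (2 at an unadjusted p under 0.05), 1 (Pfkl) when scaled to genes not mitochondrially encoded, and 2 with the replicate block and 2 with block and GC removal together, in both cases Pfkl (limma adjusted p = 0.01 and 0.000478) and Hk2 (0.0346 and 0.00489). Without the block, the adjusted p of Pfkl ran from 0.0391 to 0.347 over all alternatives and that of Hk2 from 0.108 to 0.623. Of the pathway genes, 4 were called, 17 with the block, 0 with the GC trend removed (limma, 9 at an unadjusted p under 0.05), 8 with both, 0 with a single variance prior (10 at an unadjusted p under 0.05) and 0 to 10 with a sample left out (0 without objective day replicate 2, where 8 had an unadjusted p under 0.05, 2 without objective day replicate 1, 10 without subjective day replicate 1). Same-numbered samples deviated together across genes (correlation 0.319), but with 2 numbers and no label this is a hint only. Pseudocounts, filters and median-of-ratios scaling moved no count by over 1.5 times, though without a filter 3 pathway genes were called (Pdhb lost), and 6 when scaled to genes not mitochondrially encoded.

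With the GC trend removed, with or without the block, these log2 fold changes turned sign: Aldoc -0.0213, Slc16a7 0.101, Bsg -0.0184, Nxnl1 -0.0192, Pfkfb2 0.0720, Hif1a 0.0592, Arnt 0.0254, Pdp1 0.130, Taldo1 -0.0655 and Mdh1 0.0287. With a sample left out, values of changing sign ran from -0.0473 to 0.0882 for Taldo1, from -0.139 to 0.087 for Pkm, from -0.0471 to 0.0334 for Arnt, from -0.0451 to 0.0264 for Gpi1, from -0.218 to 0.0713 for Mdh1, from -0.0661 to 0.254 for Bsg, from -0.0689 to 0.166 for Nxnl1, from -0.0777 to 0.00739 for Pfkfb2. The 4 isozyme ratios kept their sign under a pseudocount of 10, GC trend removal, the block and each left-out sample. The cause of these shifts was not tested.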
